A study of Mus musculus with 6 samples.

Results

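The genes described here are the small nucleolar RNA (snoRNA) host genes, the microRNA (miRNA) host genes and a set of named long noncoding RNAs (lncRNAs) in mouse mast cells. They were chosen by symbol: every symbol that starts with Snhg, every symbol of the form Mir, number and hg, and 17 lncRNAs and catalytic RNAs listed by name. Of the 35297 genes that could be paired with a transcript, 47 were members, with 18 Snhg genes, 13 miRNA host genes and 16 of the 17 named genes. Cyrano was listed only under the symbol Oip5os1 and is given apart from the members. The mast cells were bone marrow-derived mast cells (BMMCs), differentiated from the bone marrow of naive wild type BALB/c or C57BL/6 mice in medium that held stem cell factor, TGF-β1, IL-3 and IL-9, and their RNA was taken on day 20. There were 3 libraries of each strain (S9, S10 and S11 of BALB/c, and S12, S13 and S14 of C57BL/6), which the study calls biological replicates. No source used here says how many mice they came from, and p-values then measure the spread between these cultures.

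A snoRNA host gene is a gene whose introns carry snoRNAs, small RNAs that guide the chemical modification of ribosomal RNA. The snoRNA is cut from the intron, and the spliced exons are, in many host genes, a noncoding RNA that the ribosome still meets and that nonsense-mediated decay removes. Several of these hosts, Gas5 among them, start transcription at a run of pyrimidines, the 5′ TOP start that they share with ribosomal protein and translation factor genes. A miRNA host gene gives the long primary transcript from which miRNA hairpins are cut in the nucleus. Of the other lncRNAs, Malat1 lies at nuclear speckles, Neat1 is the scaffold of paraspeckles, H19, Meg3, Kcnq1ot1 and Snhg14 are imprinted, Norad binds Pumilio proteins in the cytoplasm, Morrbid regulates the survival of short-lived myeloid cells through its neighbour Bcl2l11, and Rpph1 and Rmrp are the RNA parts of the RNase P and RNase MRP enzymes.

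In C57BL/6 cells the snoRNA hosts Snhg8 and Gas5, the miRNA host Mir22hg, Morrbid, the imprinted H19 and the catalytic RNA Rpph1 were more than 2-fold higher than in BALB/c cells, and the snoRNA host Snhg10 was more than 2-fold lower. Mir22hg and Rpph1 each share sequence with an overlapping gene that was lower in C57BL/6 and had more reads in BALB/c, so the levels of both are uncertain. Most of the other hosts, such as Snhg1, Snhg5, Snhg12 and Snhg16, did not pass the test of a difference.

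The stretches around the transcription starts of the called members that have an entry in the RefSeq promoter table are shown first, to place their annotated starts. Gas5 has 2 entries there, and the one shown was chosen for the pyrimidine run at its start, which the other lacks. Each runs from 100 bases before to 50 bases after the annotated start, read from the RefSeq table of GRCm38.p6 and placed on GRCm39 by exact match, with 1 match for each. Capitals mark the motifs GGGCGG or CCGCCC (the GC box on either strand) and TATAAA, and, at the start itself, a run of pyrimidines that begins with C.
Gas5 (chr1:160862636-160862785, plus strand): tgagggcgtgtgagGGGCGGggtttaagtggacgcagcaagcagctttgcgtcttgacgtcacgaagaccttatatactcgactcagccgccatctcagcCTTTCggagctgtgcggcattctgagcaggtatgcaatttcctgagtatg
Snhg8 (chr3:123301936-123302085, minus strand): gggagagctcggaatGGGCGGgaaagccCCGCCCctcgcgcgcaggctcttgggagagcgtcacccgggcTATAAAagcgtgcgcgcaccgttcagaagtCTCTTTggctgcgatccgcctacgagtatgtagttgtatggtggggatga
Mir22hg (chr11:75352265-75352414, plus strand): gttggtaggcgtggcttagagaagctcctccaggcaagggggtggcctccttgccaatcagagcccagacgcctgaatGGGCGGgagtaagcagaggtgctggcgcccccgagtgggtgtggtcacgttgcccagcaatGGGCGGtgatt
Morrbid (chr2:128271222-128271371, minus strand): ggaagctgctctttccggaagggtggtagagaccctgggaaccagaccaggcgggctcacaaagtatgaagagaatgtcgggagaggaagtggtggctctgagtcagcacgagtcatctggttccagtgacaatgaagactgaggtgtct
Snhg10 (chr12:104998489-104998638, minus strand): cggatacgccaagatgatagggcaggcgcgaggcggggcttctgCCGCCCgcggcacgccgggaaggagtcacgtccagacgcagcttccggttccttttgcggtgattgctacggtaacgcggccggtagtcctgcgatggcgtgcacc
The shown Gas5 start and the Snhg8 start open with a pyrimidine run of 5 and 6 bases, and those of Mir22hg, Morrbid and Snhg10 do not hold such a run at the start base. Snhg8 also carries TATAAA from position -30 to -25 before its start. In the Morrbid stretch none of these letters were found. Over 45 promoter entries of 35 members, 5 (11.1%) began with C and at least 4 more pyrimidines, against 2.51% of all 32851 RefSeq promoters, and 3 of 21 entries of snoRNA hosts did (14.3%). GGGCGG on either strand was in 57.1% of the snoRNA host entries, 37.8% of the member entries and 35.7% of all promoters, over windows of 300 bases. TATAAA, on either strand, was in 28.6%, 26.7% and 13.6%, and CACGTG, which reads the same on both strands, in 9.52%, 6.67% and 7.15%. GATAAG, on either strand, was in 0 of 21 snoRNA host entries, 2.22% of the member entries and 7.44% of all promoters. These are descriptions of letters in a window, several entries belong to the same gene, and the share was not tested.

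The mature miRNAs cut from hosts with reads are given for the hosts that the results turn on, with the seed, bases 2 to 8, in capitals. The sequences are RefSeq's, from the table of GRCm38.p6.
miR-22-5p: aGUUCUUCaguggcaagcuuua
miR-22-3p: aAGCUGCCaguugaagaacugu
miR-675-5p: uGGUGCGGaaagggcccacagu
miR-675-3p: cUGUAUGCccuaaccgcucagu
miR-15a-5p: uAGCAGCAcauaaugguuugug
miR-16-5p: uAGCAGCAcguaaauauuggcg
miR-155-5p: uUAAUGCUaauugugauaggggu
miR-155-3p: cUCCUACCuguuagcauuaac
The miR-22 pair comes from Mir22hg, the miR-675 pair from H19, miR-15a-5p and miR-16-5p from Dleu2, and the miR-155 pair from Mir155hg. Of the 8 shown, miR-15a-5p and miR-16-5p share the seed AGCAGCA. The libraries were made from mRNA and do not measure mature miRNAs, so only the hosts have values here.

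The libraries held between 28273365 and 37100869 estimated reads on genes. Levels are given as CPM, reads scaled to a common library total after TMM correction of library size, or, where genes are set against each other, as TPM, which also divides by transcript length. Of the 12461 genes that passed the filter on low counts, the quasi-likelihood test of edgeR (adjusted by the Benjamini-Hochberg method) called 963 higher and 690 lower in C57BL/6, at an adjusted p under 0.05 and a fold change above 2. The summed level of 14 mast cell genes was 127520 to 137980 CPM in BALB/c against 166030 to 189780 CPM in C57BL/6, and Cpa3, a granule carboxypeptidase of mast cells, was at 11390 ± 543 CPM against 11240 ± 273 CPM (SD, n = 3). The proteases Mcpt2, at 54740 ± 2638 and 82930 ± 6887 CPM (log2 0.60), and Mcpt1, at 52180 ± 2894 and 63640 ± 5841 CPM (log2 0.29), held most of the sum. Of the 13 mast cell genes tested, 2 were called higher and 0 lower, the tryptase Tpsb2 at 1032 ± 185 and 5166 ± 312 CPM (log2 2.32) and the histamine-forming enzyme Hdc at 2.35 ± 0.543 and 5.34 ± 0.814 CPM (log2 1.19), and at the adjusted p 8 were higher and 1 lower. The one lower was Mitf, at 74.8 ± 2.65 and 63.8 ± 1.21 CPM (log2 -0.23, edgeR adjusted p = 0.00124). The summed level of 8 basophil genes was 406 to 418 CPM in BALB/c against 512 to 523 CPM in C57BL/6, and 4 of the 8 were called higher and 0 lower, with 5 higher and 1 lower at the adjusted p. The one lower was Il18r1, at 13.8 ± 2.04 and 9.47 ± 0.759 CPM (log2 -0.54, edgeR adjusted p = 0.00415). Of the called genes, Mcpt8, a basophil protease, was at 84.0 ± 3.73 and 182.6 ± 2.90 CPM (log2 1.12), Cebpa, a myeloid transcription factor, at 0.104 ± 0.0520 and 9.71 ± 0.541 CPM (log2 6.53), Prss34 at 0.118 ± 0.131 and 6.70 ± 0.385 CPM (log2 5.86) and Ccl9 at 0.224 ± 0.106 and 10.8 ± 0.568 CPM (log2 5.52), while Cd200r3, which holds most of the sum, was at 310.3 ± 4.67 and 296.6 ± 6.53 CPM (edgeR adjusted p = 0.154). The summed level of 8 macrophage genes was 0.705 to 1.63 CPM and then 13.3 to 13.9 CPM. Both of those tested were called higher, Adgre1 at 0.309 ± 0.271 and 9.91 ± 0.399 CPM (log2 4.93) and Cd68 at 0.913 ± 0.213 and 3.71 ± 0.434 CPM (log2 2.01). Of the 6 erythroid genes, the globin Hbb-bt had 0 reads in BALB/c and was at 5.93 ± 0.113 CPM in C57BL/6, and the erythroid factor Klf1 was called lower, at 1.64 ± 0.349 and 0.497 ± 0.0849 CPM (log2 -1.71, adjusted p = 0.000508). The globin Hba-a1, below the filter, was at 0.279 ± 0.0807 and 0.105 ± 0.0449 CPM. The reference is C57BL/6 sequence, and whether sequence differences of BALB/c bear on the 0 reads of Hbb-bt was not tested. The macrophage genes Csf1r, C1qa, C1qb and C1qc had 0 reads in all 6 libraries, as had the neutrophil genes S100a8, S100a9, Elane, Retnlg, Camp and Ltf and the eosinophil genes Epx, Ear1, Ear2 and Ear6. The neutrophil genes summed to at most 0.186 CPM, the eosinophil genes to at most 0.665 CPM, and the 7 T or NK cell genes listed in the tables to 4.80 to 5.65 CPM in BALB/c against 4.44 to 5.10 CPM in C57BL/6, with Cd3e, Cd3g, Cd4 and Thy1 at 0 reads. The part of such cells in the values of the members was not tested, and in bulk RNA fewer cells of a type and less RNA per cell cannot be told apart.

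Of the 47 members, 35 had reads and 28 passed the filter. Together the members took 0.0571% to 0.0574% of the gene reads of a BALB/c library and 0.0614% to 0.0666% of a C57BL/6 library. Their TPM summed to 595 to 644 in BALB/c, while in C57BL/6 it was 786 to 840, and Gas5 alone held 186 ± 7.71 and 321 ± 13.8 TPM of these (SD, n = 3). After Gas5, the order of mean TPM in BALB/c was Snhg1 (58.2 TPM), Norad (45.9), Neat1 (42.6), Rmrp (32.5), Snhg3 (32.1), Malat1 (29.9), Rpph1 (28.5), Snhg15 (23.6), Epb41l4aos (22.9), Snhg6 (21.7), Snhg5 (16.5), Snhg20 (15.0) and Snhg8 (14.2). Norad and Neat1, neighbours from Rmrp to Snhg6 and neighbours from Snhg5 to Snhg8 overlapped in their libraries. In C57BL/6 it was Snhg1 (52.7 TPM), Rpph1 (50.6), Neat1 (48.1), Norad (39.5), Snhg6 (36.3), Snhg8 (34.8), Malat1 (31.9), Epb41l4aos (29.4), Snhg15 (27.2), Rmrp (25.2), Snhg3 (23.4) and Morrbid (18.8), and neighbours from Snhg1 to Neat1 and from Norad to Snhg3 overlapped. Over all 6 libraries Kcnq1ot1 (mean 0.379 TPM), H19 (0.305) and Mir17hg (0.266) came last. In CPM, which does not divide by length, Malat1, Norad and Neat1 led.

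In edgeR's test 6 of the 28 members were called higher in C57BL/6 (21.4%, beside 7.73% of all genes tested) and 1 was called lower (3.57%, beside 5.54%). At the adjusted p alone, 13 were higher (46.4%, beside 27.0% of all genes) and 1 was lower (3.57%, beside 25.9%). For 16 of the 28, all libraries of 1 strain lay above all of the other (57.1%, beside 61.9% of all genes). The median log2 fold change was 0.23 over the members and -0.01 over all genes, and the values ran from -1.16 (Snhg10) to 2.71 (H19). With the reads of genes that share sequence added to the members, 29 were tested, the members' median was 0.04 and that of all genes -0.01, and 5 of the 7 called members were still called, without Mir22hg and Rpph1. Of the 894 genes that the RefSeq table types as lncRNA and that were tested, 14.8% were called higher and 9.51% lower, with a median log2 fold change of 0.09. Under plain library size the all-gene median was -0.15, and then 8 members passed the adjusted p as higher and 3 as lower. In both limma tests on TPM, with all-gene medians of -0.15 and -0.18, 7 passed as higher and 9 as lower. Members with fewer than 1 CPM on average carry the widest intervals, and of the 23 at 1 CPM or more 5 were called higher and 0 lower, with 12 higher and 0 lower at the adjusted p. By DESeq2 these 23 gave 5 and 0 calls, and at an unadjusted p under 0.05 13 were higher and 0 lower in edgeR.

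**Figure D1:**
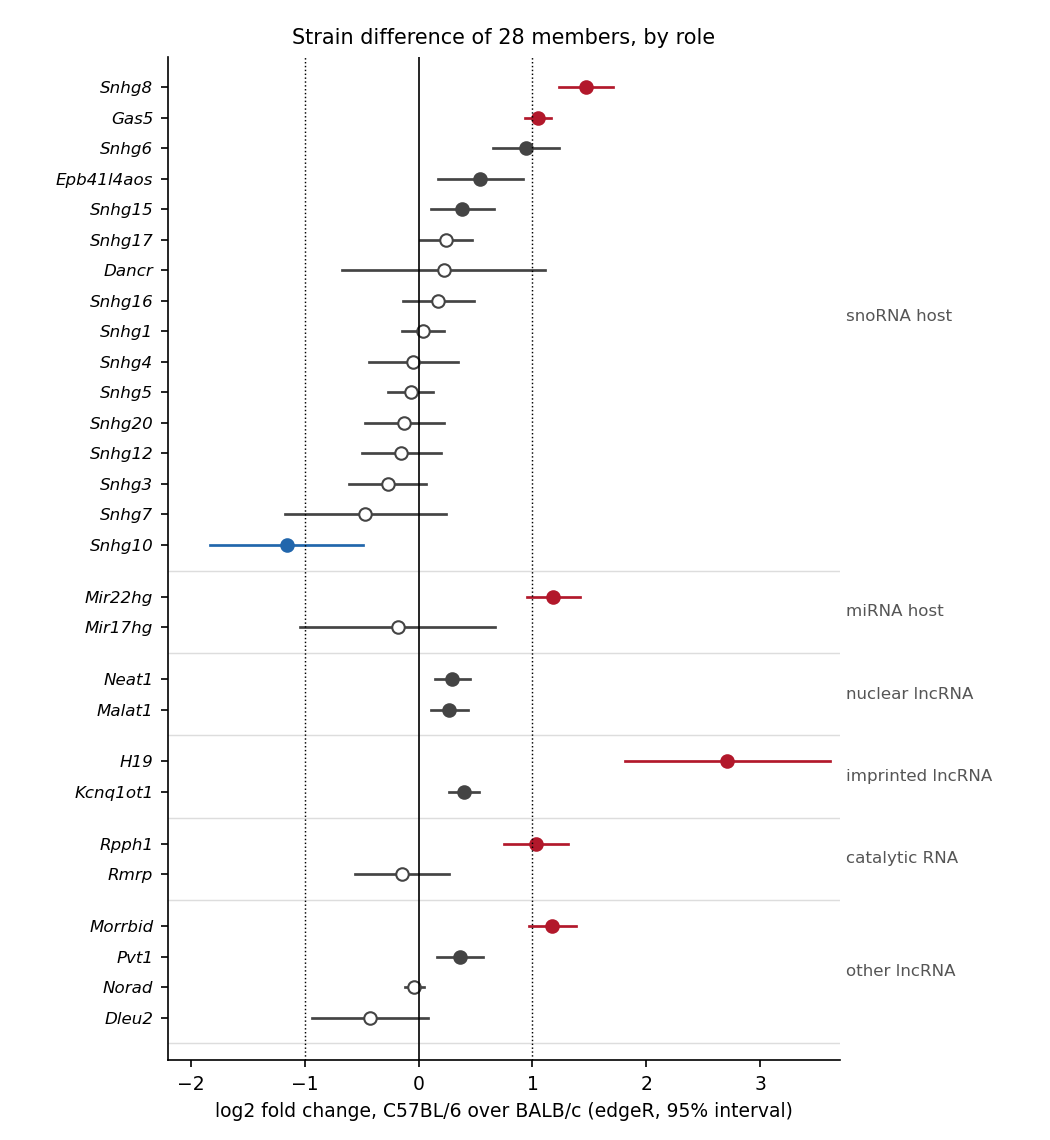
Log2 fold change of each of the 28 members tested (x axis, C57BL/6 over BALB/c, with the 95% interval of edgeR), grouped by role. Red marks members called higher, blue the member called lower and grey the rest, filled points have an adjusted p under 0.05, and dotted lines stand at a 2-fold change. The snoRNA hosts spread from -1.16 (Snhg10) to 1.47 (Snhg8), with most near 0.

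Among the 20 snoRNA hosts (17 Snhg genes, Gas5, Dancr and Epb41l4aos), 16 were tested, and 2 were called higher (12.5%, beside 7.73% of all genes tested) and 1 lower (6.25%, beside 5.54%). At the adjusted p alone 5 were higher (31.25%, beside 27.0% of all genes), 1 was lower (6.25%, beside 25.9%) and 10 did not pass. Their median log2 fold change was 0.11. Gas5, the host of a row of C/D box snoRNAs and named for its accumulation in growth-arrested cells, lies at chr1:160861793-160866118 on the plus strand (GRCm39). It stood at 30.4, 33.2 and 33.6 CPM in the BALB/c libraries and at 69.0, 66.0 and 66.0 CPM in the C57BL/6 libraries. Every C57BL/6 library was above every BALB/c library, by far more than the libraries of a strain differed. The means were 32.4 ± 1.77 and 67.0 ± 1.74 CPM (SD, n = 3), a 2.07-fold difference (log2 1.05, SE 0.05, edgeR adjusted p = 3.15e-07). Its log2 fold change was 0.79 or more in each alternative tried, and fell below 2-fold in 4 of them, among them both tests on TPM. Exons of Gas5 overlap Zbtb37 on the opposite strand. Zbtb37 was at 5.80 ± 1.33 and 5.43 ± 2.96 CPM (adjusted p = 0.821). The kit keeps strand, but whether strand was used in assigning the reads is not given in the sources used here, so reads from opposite strands may not be told apart.

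Snhg8, the host of the H/ACA snoRNA Snora24, lies at chr3:123301192-123302578 on the minus strand. Its level was 5.75, 5.80 and 6.65 CPM in BALB/c against 18.6, 15.2 and 16.7 CPM in C57BL/6. The lowest C57BL/6 library was more than 2-fold above the highest BALB/c library. The means of 6.07 ± 0.506 and 16.8 ± 1.72 CPM differed 2.77-fold (log2 1.47, SE 0.10, edgeR adjusted p = 3.76e-06), and Snhg8 was called under every alternative. Its nearest protein-coding neighbours in the RefSeq table were also called higher, Ndst3, a heparan sulfate N-deacetylase and sulfotransferase, from 3.1 ± 0.783 to 17.6 ± 1.02 CPM (log2 2.50, adjusted p = 1.32e-06) and Prss12, a serine protease, from 1.22 ± 0.365 to 2.58 ± 0.233 CPM (log2 1.08, adjusted p = 0.00306).

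Snhg6, the host of Snord87, stood just under the fold threshold. It was at 3.20, 3.79 and 3.35 CPM in BALB/c against 6.45, 5.91 and 7.46 CPM in C57BL/6, without overlap. The means were 3.45 ± 0.306 and 6.61 ± 0.784 CPM, 1.92-fold apart (log2 0.94, SE 0.13, edgeR adjusted p = 0.000248). Without BALB/c replicate 2 or without C57BL/6 replicate 2 its log2 fold change was 1.01 or 1.02 and it was called. Just inside the threshold were Rpph1 at 2.04-fold and Gas5 at 2.07-fold.

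Snhg10 was the member called lower. It hosts the small Cajal body RNA Scarna13 and lies at chr12:104996704-104998775 on the minus strand. Its reads were few, 19, 17 and 26 in BALB/c against 9, 9 and 8 in C57BL/6, or 0.597, 0.570 and 0.692 CPM against 0.282, 0.333 and 0.226 CPM. The libraries did not overlap, and BALB/c was 2.23-fold higher (log2 -1.16, SE 0.30, edgeR adjusted p = 0.00958). DESeq2 gave a log2 fold change of -1.16 with an adjusted p of 0.109, so the call rests on the tool, and in limma on log2(TPM + 1) it was at -0.82, below 2-fold. Its neighbours Glrx5 (58.3 ± 3.0 against 52.2 ± 0.0428 CPM) and Syne3 (46.9 ± 5.85 against 67.1 ± 4.18 CPM) changed by less than 2-fold (edgeR adjusted p = 0.0149 and 0.000765).

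Epb41l4aos and Snhg15 also passed the adjusted p as higher, by less than 2-fold. Epb41l4aos, the antisense transcript at Epb41l4a, rose from 4.12 ± 0.961 to 6.00 ± 0.259 CPM (log2 0.54, SE 0.16, edgeR adjusted p = 0.0208). Snhg15 rose from 6.83 ± 0.992 to 8.95 ± 0.620 CPM (log2 0.38, SE 0.12, adjusted p = 0.0243). Neither passed without C57BL/6 replicate 1 (edgeR adjusted p = 0.0583 and 0.0577) or C57BL/6 replicate 2 (0.0593 and 0.0809), under plain library size (0.0600 and 0.108), with unmatched transcripts kept (0.0838 and 0.0759) or in the limma tests on TPM. Snhg15 did not pass without BALB/c replicate 1 either (0.0563).

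The other 10 hosts tested did not pass. Snhg1, which has some of the most reads among the hosts, was at 11.6, 11.6 and 13.1 CPM in BALB/c against 12.9, 12.5 and 12 CPM in C57BL/6, and the strains overlapped (log2 0.04, 95% interval -0.14 to 0.23, edgeR adjusted p = 0.688). Snhg5 was at 9.62 ± 0.721 and 9.19 ± 0.322 CPM (log2 -0.07, interval -0.27 to 0.13). For these hosts the interval leaves out a 2-fold difference either way. Snhg17 had no overlap, 6.09 ± 0.280 against 7.21 ± 0.623 CPM, and its log2 fold change of 0.24 (SE 0.10) had an edgeR adjusted p of 0.0749. Snhg16 was at 5.11 ± 0.753 and 5.77 ± 0.587 CPM (log2 0.17) and Snhg20 at 4.42 ± 0.881 and 4.07 ± 0.219 CPM (log2 -0.12). Snhg3, which hosts Snora73a and Snora73b, was at 5.78 ± 1.03 and 4.81 ± 0.433 CPM (log2 -0.27), and Snhg12 at 3.08 ± 0.353 and 2.77 ± 0.293 CPM (log2 -0.15). The least abundant were Snhg4 at 1.85 ± 0.221 and 1.80 ± 0.102 CPM (log2 -0.04), Dancr at 0.920 ± 0.403 and 1.07 ± 0.400 CPM (log2 0.22) and Snhg7 at 0.606 ± 0.108 and 0.434 ± 0.124 CPM (log2 -0.47). For Dancr the interval ran from -0.67 to 1.11, and a 2-fold rise was not excluded at this depth. Snhg3 shares words of 31 bases with Rcc1 (49.5%) and Snhg4 with Matr3 (67.2%), which overlap them on the same strand, so their reads are uncertain. Each percentage is the larger of the share of the member's words and the share of the words of a transcript of the other gene. For Snhg4 the words include those of a protein-coding GENCODE gene of the same name. Snhg5 shares words with 9330159M07Rik (30.98%) and 9430037G07Rik (27.75%), which do not overlap it in the genome. Rcc1 has most of the reads of its pair and was lower, at 49.9 ± 2.69 and 35.8 ± 1.03 CPM (log2 -0.48, adjusted p = 5.5e-05), and the sum of Snhg3 and Rcc1 was at log2 -0.45 (adjusted p = 3.4e-05). Snhg3 alone passed as lower without BALB/c replicate 1 (log2 -0.41, adjusted p = 0.0213), under plain library size (log2 -0.41, adjusted p = 0.0347) and in limma on TPM (adjusted p = 0.013 and 0.0115), and Snhg17 passed as higher without C57BL/6 replicate 3 (log2 0.31, adjusted p = 0.0462).

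Of the hosts that were not tested, Snhg18, the host of Snord123, had 3, 6 and 2 reads in BALB/c against 17, 17 and 10 in C57BL/6, without overlap. Snhg9 had at most 5 reads in a library, Snhg11 at most 1, and Snhg7os none. Snhg18 stayed below the filter in edgeR's main test, and DESeq2, which tested it, called it higher (log2 2.07, adjusted p = 0.0322), as did edgeR with no filter on low counts (log2 2.04, adjusted p = 0.00859).

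**Figure D2:**
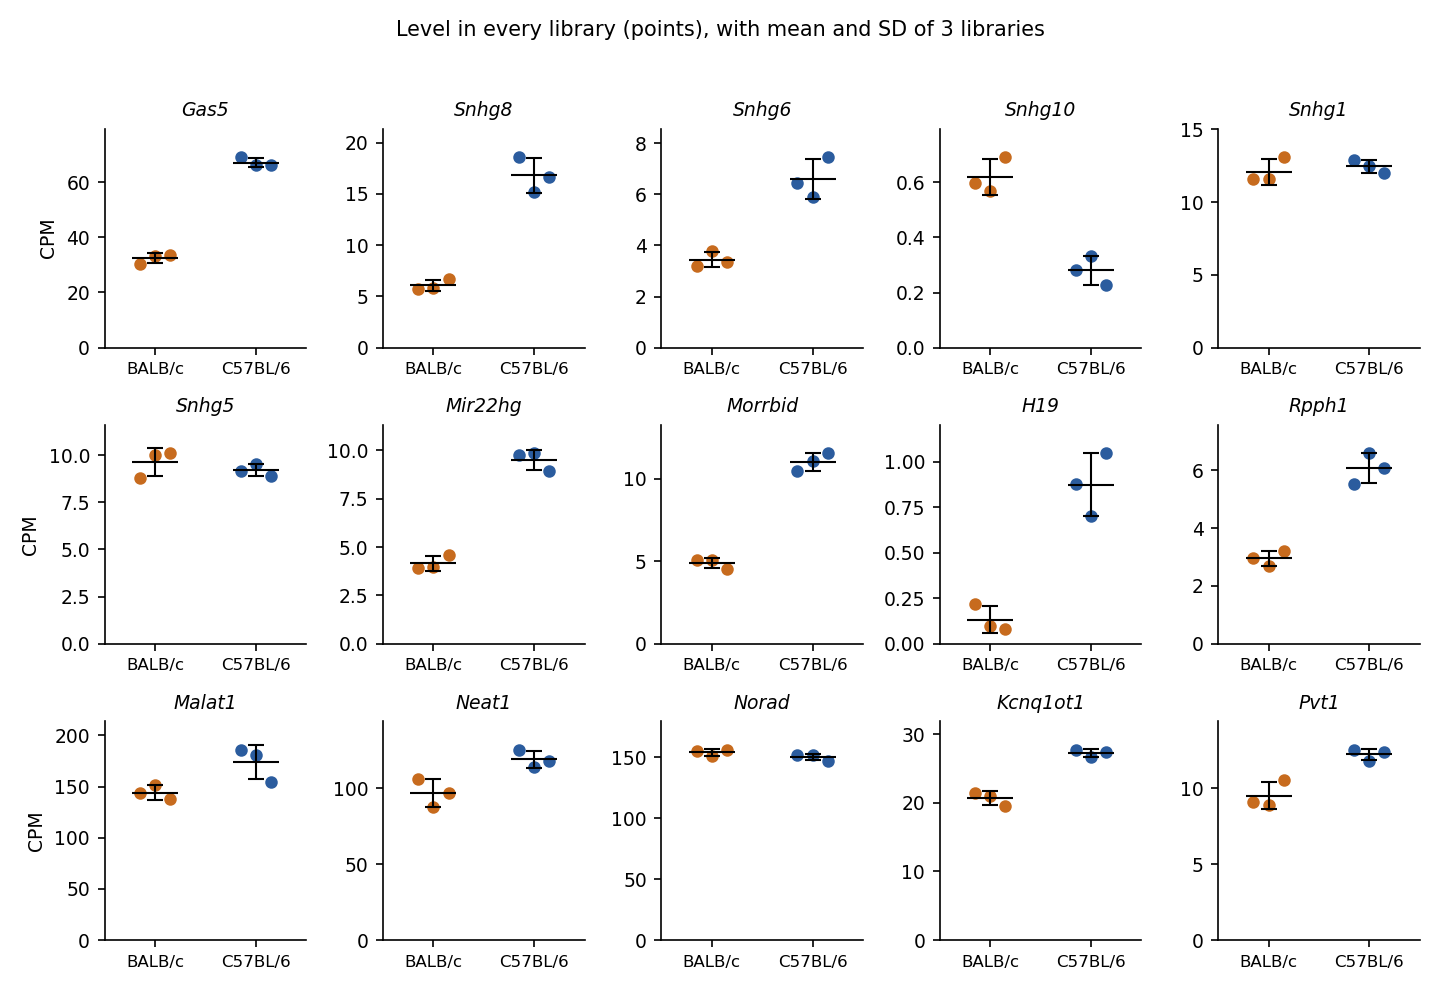
CPM (y axis, from 0 in each panel) of 15 members in the 3 BALB/c libraries (orange) and the 3 C57BL/6 libraries (blue), with the mean and SD. Gas5, Snhg8, Mir22hg, Morrbid, H19 and Rpph1 separate upward in C57BL/6, Snhg10 downward, and Snhg1, Snhg5 and Norad overlap.

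The libraries were made from mRNA, and the small RNAs that the hosts carry had few reads in them. Of the 20 snoRNA or guide RNA entries that the deposited tables hold within the spans of members (Snhg14 left out), 10 had reads, with at most 18 in a library. Snord22 of Snhg1 had 16, 5 and 15 reads in BALB/c against 15, 9 and 8 in C57BL/6. Of 31 miRNA hairpins within the spans, Mir6516, inside Snhg20, was the single entry with reads, 19, 22 and 38 in BALB/c against 9, 8 and 15 in C57BL/6. The strains did not overlap for Mir6516 in CPM, and edgeR called it lower (log2 -1.22, SE 0.32, adjusted p = 0.0115), while its host Snhg20 had 133, 110 and 203 reads in BALB/c against 127, 106 and 153 in C57BL/6. Whether reads on the hairpin come from the host transcript was not tested.

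Of the 13 miRNA hosts, Mir22hg and Mir17hg were tested. Mir22hg, the primary transcript of the miR-22 pair shown above, lies at chr11:75352365-75357502 on the plus strand. It was at 3.93, 3.96 and 4.60 CPM in BALB/c against 9.73, 9.83 and 8.93 CPM in C57BL/6. The strains were far apart, at 4.16 ± 0.381 and 9.50 ± 0.496 CPM (2.27-fold, log2 1.18, SE 0.10, edgeR adjusted p = 1.49e-05). In limma on TPM it was at log2 0.85 and just under 1 and was not called. Mir22hg overlaps Tlcd2, which encodes a membrane protein of the TLC domain family, on the same strand and shares 33.2% of its words with it. Tlcd2 had 684, 743 and 796 reads in BALB/c against 232, 190 and 297 in C57BL/6, and was called lower (log2 -1.57, adjusted p = 1.75e-06). The sum of both genes was at log2 -0.64 (adjusted p = 4.08e-05), a sign that Tlcd2 sets through its greater number of reads. How much the split of shared reads by Salmon bears on the level of Mir22hg was not tested. Wdr81, on the other side, was at 84.4 ± 3.73 and 79.0 ± 2.08 CPM (log2 -0.10, adjusted p = 0.0987).

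Mir17hg, the host of the miR-17 to miR-92a cluster known from lymphomas, was at 0.454 ± 0.161 and 0.408 ± 0.119 CPM (log2 -0.18, SE 0.38, edgeR adjusted p = 0.71). Mir155hg, the host of the inflammatory miR-155, was below the filter, with 3, 2 and 5 reads in BALB/c against 9, 9 and 9 in C57BL/6. Its libraries did not overlap. Mir670hg had 1 read in 1 library. Mir100hg, Mir124-2hg, Mir124a-1hg, Mir133a-1hg, Mir1a-1hg, Mir205hg, Mir217hg, Mir9-3hg and Mir99ahg, most of them known from muscle, brain or epithelium, had 0 reads in all 6 libraries.

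With Norad, the nuclear lncRNAs Malat1 and Neat1 had the most reads of all members. Malat1 was at 144, 151 and 137 CPM in BALB/c against 186, 181 and 155 CPM in C57BL/6, and Neat1 at 106, 87.6 and 97.0 against 125, 114 and 118 CPM. For both genes every C57BL/6 library was above every BALB/c library. The differences were small, with a log2 fold change of 0.27 (SE 0.07, edgeR adjusted p = 0.01) for Malat1 and 0.30 (SE 0.07, adjusted p = 0.00525) for Neat1, and they did not pass in some alternatives, where the adjusted p reached 0.344 and 0.0837. Miat, the third of this group, had 0 reads.

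H19 and Kcnq1ot1 were the imprinted members tested. H19, the maternally expressed lncRNA beside Igf2 and the host of miR-675, lies at chr7:142129262-142133957 on the minus strand. It had 7, 3 and 3 reads in BALB/c against 28, 19 and 37 in C57BL/6, or 0.220, 0.101 and 0.0798 CPM against 0.876, 0.702 and 1.05 CPM. The strains did not overlap, and the fold was 6.54 (log2 2.71, SE 0.40, edgeR adjusted p = 0.000402) at a level under 1 TPM. In limma on log2(TPM + 1), where the pseudocount exceeds its level, H19 was at log2 0.48 (adjusted p = 0.000538) and was not called. Igf2, its neighbour in the imprinted locus, was also called higher, from 0.333 ± 0.0133 to 0.970 ± 0.0655 CPM (log2 1.53, adjusted p = 0.000756), and Mrpl23 on the other side was at 35.1 ± 1.70 and 37.3 ± 0.766 CPM (log2 0.09, adjusted p = 0.164).

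Kcnq1ot1, a long antisense transcript within Kcnq1 that silences its neighbours on the paternal chromosome, was at 21.5, 21.0 and 19.6 CPM in BALB/c against 27.7, 26.6 and 27.4 CPM in C57BL/6. Without overlap, the log2 fold change was 0.40 (SE 0.06, edgeR adjusted p = 0.00034), a 1.32-fold difference. It did not pass in the limma tests on TPM (log2 0.06 and 0.18, adjusted p = 0.282 and 0.307). Its listed transcript has 83437 bases, and its TPM was below 1. Meg3 had 0 reads, and Snhg14, the host at the Prader-Willi locus, had 1 read in 1 library.

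The catalytic RNAs are transcribed by RNA polymerase III and carry no poly(A) tail, so libraries of mRNA see only a part of them. Rpph1, at chr14:51044906-51045224 on the minus strand, was at 2.98, 2.68 and 3.19 CPM in BALB/c against 5.54, 6.58 and 6.07 CPM in C57BL/6. The strains did not overlap, with 2.95 ± 0.255 and 6.06 ± 0.520 CPM (2.04-fold, log2 1.03, SE 0.12, edgeR adjusted p = 0.00011). Rpph1 shares words of 31 bases with Ccnb1ip1 (82.7% by the measure used for Snhg3), which overlaps it on the same strand. Ccnb1ip1, a ubiquitin ligase of meiotic crossing over, had 206, 194 and 274 reads in BALB/c against 0, 0 and 0 in C57BL/6. The sum of the pair was at log2 -0.68 (adjusted p = 0.000419), a sign that the reads of Ccnb1ip1 in BALB/c set. Which of the genes the shared reads belong to was not tested. Without BALB/c replicate 2 or C57BL/6 replicate 2, Rpph1 itself was at a log2 fold change of 0.97 and was not called, nor was it under plain library size (0.89) or in limma on TPM (0.81 and 0.83), each time below 2-fold. Parp2, on the opposite strand, was at 25.6 ± 2.05 and 24.7 ± 1.17 CPM (log2 -0.06, adjusted p = 0.542).

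Rmrp had a similar level, at 2.37 ± 0.127 and 2.15 ± 0.444 CPM (log2 -0.14, SE 0.18, edgeR adjusted p = 0.537). Among 11 protein subunits of RNase P and RNase MRP, 1 was called higher and 0 lower (also by DESeq2), and at the adjusted p 3 were higher and 3 lower. The called subunit was Pop4, a core protein that contacts the RNA, at 10.2 ± 1.17 and 23.8 ± 1.93 CPM (log2 1.21, adjusted p = 9.14e-06). Pop5 was at 24.4 ± 1.09 and 27.4 ± 0.331 CPM (log2 0.17, adjusted p = 0.0253), Rpp14 at 16.3 ± 2.18 and 18.4 ± 0.899 CPM (log2 0.17, adjusted p = 0.168), Rpp21 at 18.1 ± 1.17 and 15.5 ± 0.898 CPM (log2 -0.22, adjusted p = 0.0373) and the list's median log2 fold change was -0.13.

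The last group holds Morrbid, Pvt1, Norad, Dleu2 and Mirt1. Morrbid, known for lengthening the life of eosinophils, neutrophils and monocytes, spans chr2:128020186-128391544 on the minus strand. It was at 5.06, 5.07 and 4.55 CPM in BALB/c against 10.5, 11.1 and 11.5 CPM in C57BL/6. The strains were well apart, at 4.89 ± 0.296 and 11 ± 0.540 CPM (2.26-fold, log2 1.17, SE 0.09, edgeR adjusted p = 7.51e-06), and in limma on log2(TPM + 1) the log2 fold change was 0.96, below 2-fold. Bcl2l11, which encodes the pro-apoptotic protein Bim and is the neighbour on 1 side, was higher as well, from 9.30 ± 0.0649 to 15.3 ± 0.899 CPM (log2 0.71, adjusted p = 5.37e-05), short of 2-fold. Spdye4c on the other side had 0 reads.

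Pvt1, the lncRNA beside Myc, was at 9.11, 8.93 and 10.6 CPM in BALB/c against 12.5, 11.8 and 12.4 CPM in C57BL/6, without overlap (log2 0.36, SE 0.09, edgeR adjusted p = 0.00798). Pvt1 did not pass under plain library size (log2 0.22, adjusted p = 0.0612) or in limma on TPM (adjusted p = 0.0823 and 0.0873). Norad, which is induced by DNA damage and keeps chromosomes stable, was at 155, 151 and 156 CPM in BALB/c against 151, 151 and 147 CPM in C57BL/6. The strains overlapped, and the interval of the log2 difference ran from -0.12 to 0.04 (log2 -0.04, SE 0.04, adjusted p = 0.401). Under plain library size Norad passed as lower (log2 -0.18, adjusted p = 0.00219), and in TPM the strains did not overlap, at 45.9 ± 0.897 and 39.5 ± 1.09 TPM (limma with a pseudocount of 1, log2 -0.21, adjusted p = 0.00198). Dleu2, the host of miR-15a and miR-16, was at 1.70 ± 0.337 and 1.27 ± 0.216 CPM, without overlap but with few reads (log2 -0.43, SE 0.22, adjusted p = 0.143). Mirt1 had at most 4 reads in a library. Oip5os1, which holds Cyrano as a synonym and is known for pairing with miR-7, was at 45.6 ± 1.12 and 75.6 ± 0.330 CPM (log2 0.73, SE 0.04, adjusted p = 4.86e-07).

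**Figure D3:**
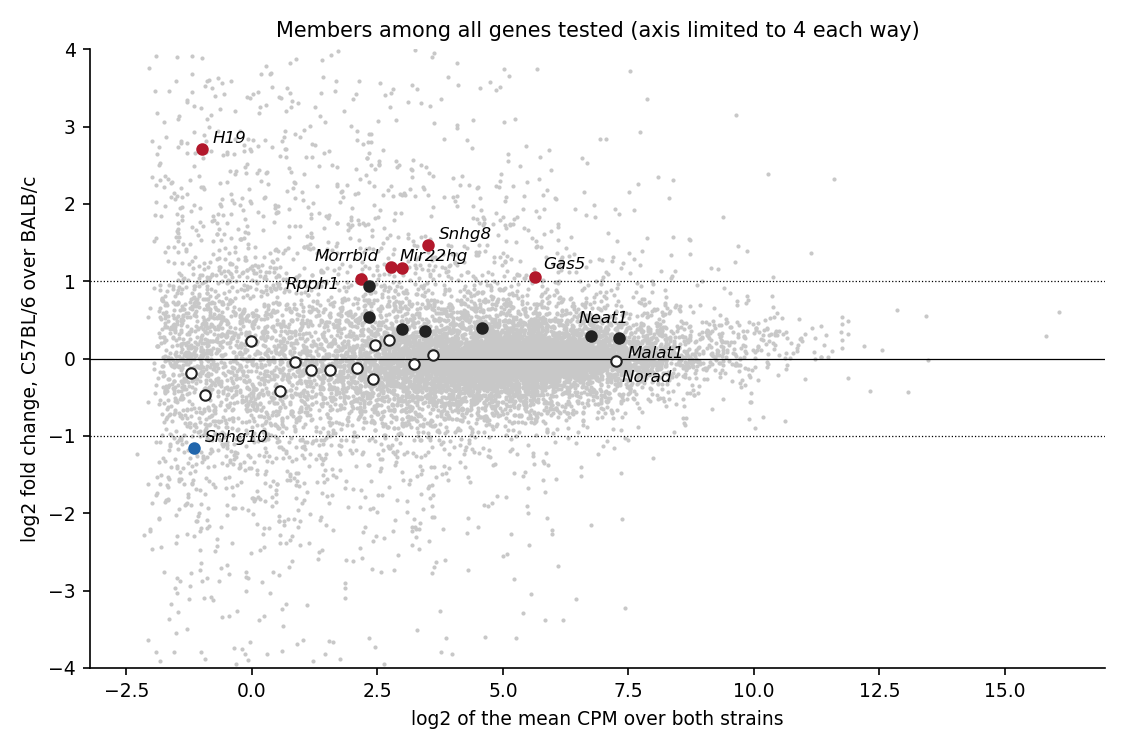
Log2 fold change (y axis) against the log2 of the mean CPM (x axis) for the 12192 genes within 4 log2 units of 0 (grey, with 269 genes outside) and the 28 members (red called higher, blue called lower, black the rest, filled at an adjusted p under 0.05). Gas5 is the called member with the most reads, and H19 and Snhg10 lie among the genes with few reads.

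The deposited tables give reads per transcript, and for several members the split of the reads differed between the strains. Of the 19 transcripts of members that held at least 10% of the reads of their gene on average, in 9 genes, 9 had shares that did not overlap between the strains, in 6 genes. Over all genes tested with at least 2 transcripts, 18.3% of 15720 such transcripts did not overlap. No test was run on shares, since Salmon estimates them and transcripts of a gene depend on each other. In Gas5, with 8 transcripts, the one of 501 bases held 47.8%, 47.2% and 44.8% of the gene's reads in BALB/c against 61.9%, 63.1% and 61.8% in C57BL/6. The one of 460 bases held 24.1%, 27.4% and 29.3% and then 16.8%, 16.2% and 15.6%. In reads, the 501-base transcript had 463, 467 and 567 in BALB/c against 1365, 1127 and 1444 in C57BL/6, and the 460-base transcript 233, 271 and 371 against 371, 289 and 365, which overlap.

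In Morrbid, the 2797-base transcript held 16.9%, 19.4% and 16.4% in BALB/c against 25.7%, 30.3% and 34.2% in C57BL/6, and the 1836-base transcript 43.3%, 43.0% and 41.0% against 28.5%, 27.8% and 22.1%. The strains did not overlap for either, and the 580-base transcript, at 40.0% ± 2.48 and 43.8% ± 1.95 (SD, n = 3), overlapped. In Neat1, the short form of 3190 bases took 91.3%, 95.2% and 91.7% in BALB/c against 96.8%, 96.9% and 97.4% in C57BL/6, and the long form of 20771 bases, which builds paraspeckles, the remaining 8.67%, 4.84% and 8.28% and then 3.22%, 3.12% and 2.56%. The short form lies wholly within the start of the long one, so reads of that stretch are divided by estimate. How fully libraries of mRNA hold the long form of Neat1, or Malat1, was not tested. In Snhg16, whose gene level did not pass, the 690-base transcript held 31.9% ± 2.33 in BALB/c against 18.2% ± 1.94 in C57BL/6 and the 882-base transcript 37.8% ± 5.07 and 47.5% ± 5.79. The 2805-base transcript of Pvt1 (32.5% ± 6.18 against 46.6% ± 6.02) and the 1278-base transcript of Dancr (26.1% ± 11.2 against 47.2% ± 8.57) were the others without overlap. The reads of H19 were given wholly to 1 of its 2 transcripts in each library, which differ by 4 bases in length, and its shares carry no weight at 3 to 37 reads.

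**Figure D4:**
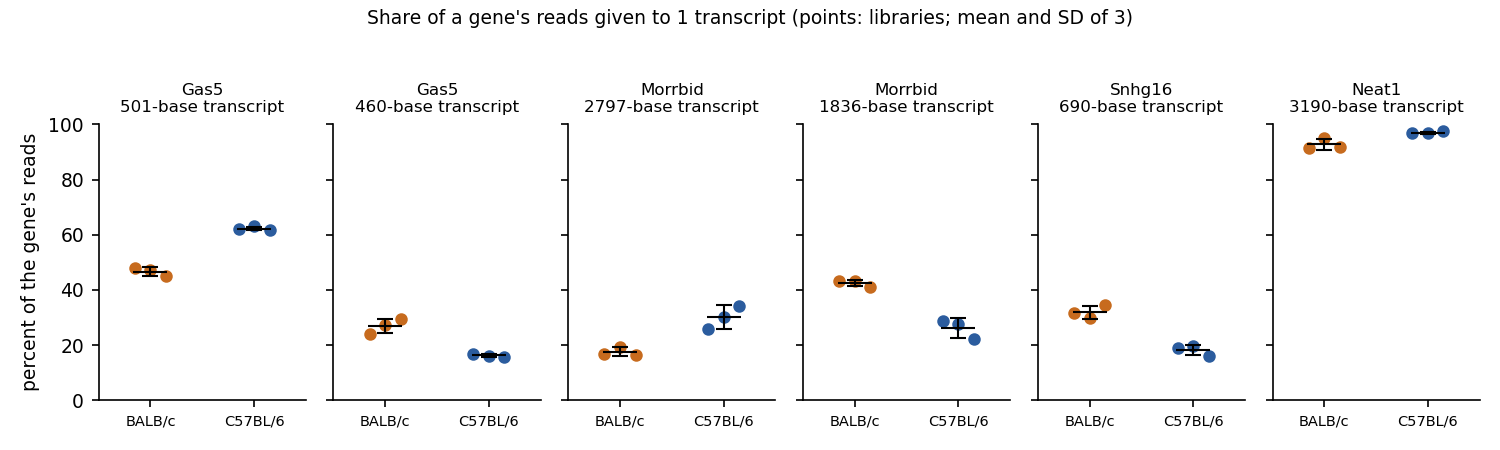
Percent of a gene's reads given to 1 transcript (y axis, 0 to 100) in the 3 BALB/c (orange) and 3 C57BL/6 libraries (blue), with mean and SD. The 501-base transcript of Gas5 stands at 46.6% ± 1.56 and 62.2% ± 0.718, and the 1836-base transcript of Morrbid at 42.5% ± 1.25 and 26.1% ± 3.52.

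Lists of genes that act with the members were set beside them. The background for their counts at the adjusted p is 27.0% of all genes tested higher and 25.9% lower. The protein-coding snoRNA hosts carry snoRNAs in their introns as the Snhg genes do. Of 21, 1 was called higher and 0 lower (also by DESeq2), and at the adjusted p of edgeR 14 were higher and 1 was lower, with a median log2 fold change of 0.27 beside -0.01 over all genes. The called gene was Rps2, a ribosomal protein of the small subunit, at 865 ± 26.5 and 1801 ± 58.5 CPM (log2 1.06, adjusted p = 6.51e-08). Exons of the member Snhg9 overlap Rps2 on the opposite strand. Eef2, the elongation factor of translocation, rose from 3360 ± 22.5 to 4176 ± 64.5 CPM (log2 0.31, adjusted p = 2.1e-05), and Hspa8, a constitutive chaperone, was at 2842 ± 52.7 and 2891 ± 61.7 CPM (log2 0.03, adjusted p = 0.54).

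Of 20 translation factors and related genes with a TOP start, 0 were called either way by edgeR or DESeq2, and 16 were higher and 0 lower at the adjusted p in both tools (also 16 and 0 at an unadjusted p under 0.05 in edgeR), with a median log2 fold change of 0.25. Eef1a1, which brings tRNAs to the ribosome, rose from 8996 ± 132 to 13140 ± 786 CPM (log2 0.55, adjusted p = 7.24e-06) and Tpt1 from 2225 ± 99.9 to 2976 ± 67.5 CPM (log2 0.42, adjusted p = 2.54e-05). This list shares Eef2, Eef1b2, Rpsa and Rack1 with the list of protein-coding hosts. Under plain library size, where the median of all genes was -0.15, the median of this list was 0.10, with 10 higher and 1 lower, and that of the protein-coding hosts 0.12, with 12 higher and 7 lower. In both limma tests on TPM the medians were 0.07 (7 higher and 2 lower) and 0.09 (10 higher and 6 lower).

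Of 15 snoRNP proteins, 0 were called by either tool, and at the adjusted p of edgeR 1 was higher and 6 were lower (median log2 -0.05, with 1 and 7 at an unadjusted p under 0.05). Nop56, a core protein of C/D box snoRNPs, fell from 118 ± 7.03 to 95.4 ± 1.97 CPM (log2 -0.31, adjusted p = 0.000651), fibrillarin (Fbl), their methyltransferase, from 136 ± 7.70 to 123 ± 3.56 CPM (log2 -0.15, adjusted p = 0.0295), and Dkc1, the pseudouridine synthase of H/ACA snoRNPs, rose from 58.0 ± 3.93 to 66.0 ± 1.67 CPM (log2 0.19, adjusted p = 0.0153).

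Of 16 genes of nonsense-mediated decay, the pathway that removes many spliced host transcripts, 0 were called by either tool, and 5 were higher and 2 lower at the adjusted p (median log2 0.05, with 6 and 4 at an unadjusted p under 0.05). Its helicase Upf1 was at 68.8 ± 1.88 and 79.4 ± 4.25 CPM (log2 0.21, edgeR adjusted p = 0.00504), Eif4a3, a helicase of the exon junction complex, at 110.0 ± 2.52 and 101.3 ± 3.08 CPM (log2 -0.12, adjusted p = 0.0315), and Smg1, the kinase that acts on Upf1, at 184 and 163 CPM (log2 -0.18, adjusted p = 0.065). Of 16 genes of miRNA processing, 0 were called by either tool, with 3 higher and 3 lower at the adjusted p (the same numbers at an unadjusted p under 0.05). Dicer1, which cuts the hairpin to the mature miRNA, fell from 189 ± 6.82 to 119 ± 4.75 CPM (log2 -0.66, adjusted p = 3.06e-06), and Ddx5, a helicase of the Drosha complex, rose from 1025 ± 23.4 to 1139 ± 44.0 CPM (log2 0.15, adjusted p = 0.00944). Of 13 paraspeckle and speckle proteins, 0 were called by either tool, with 1 higher and 6 lower at the adjusted p (the same at an unadjusted p under 0.05) and a median log2 fold change of -0.01. Nono, a paraspeckle protein that binds Neat1, was at 312 ± 4.48 and 291 ± 7.63 CPM (log2 -0.10, adjusted p = 0.0497), and Hnrnpk at 649 and 667 CPM (log2 0.04, adjusted p = 0.423). Under plain library size, with the all-gene median at -0.15, the balance of these lists moved down, to 0 higher and 10 lower for the snoRNP proteins, 1 and 7 for nonsense-mediated decay, 1 and 7 for miRNA processing, 1 and 9 for the paraspeckle and speckle proteins and 2 and 6 for the RNase P and RNase MRP proteins. In both limma tests on TPM these were 0 and 11, 1 and 7, 1 and 9, 1 and 9, and 1 and 6.

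**Figure D5:**
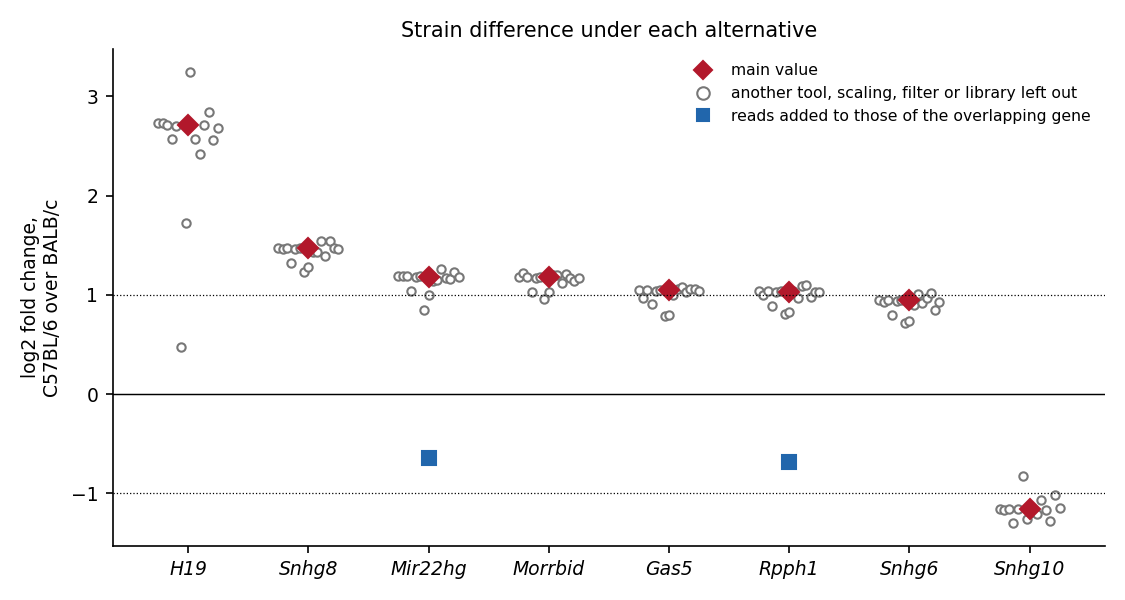
Log2 fold change (y axis) of the called members and Snhg6 in the main test (red diamonds), under each other tool, scaling, filter or left-out library (open circles) and, for Mir22hg and Rpph1, with their reads added to those of the overlapping gene (blue squares). Dotted lines stand at a 2-fold change. Snhg8 stays between 1.23 and 1.54, Gas5 between 0.79 and 1.08, and the blue squares lie at -0.64 and -0.68.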

How the data were processed

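BMMCs taken on day 20 gave 3 libraries for each strain, prepared as stranded poly(A) mRNA libraries. The authors assigned reads with Salmon 0.8.2 after FastQC 0.11.5 (per the submitters' processing notes). The deposited tables list 129698 RefSeq transcripts with lengths in bases, the estimated count, and the deposited TPM, while Ensembl transcripts (GRCm39) are named in the methods of the study. The reference is C57BL/6 sequence, and how sequence differences of BALB/c affect assignment was not tested. Transcripts were matched without version to gene symbols through a RefSeq table of GRCm38.p6 (106440 matched, and unmatched ones held 2.69% to 3.12% of reads and were left out), and positions come from GENCODE for GRCm39. Of the 88 member transcripts, 76 had the same version.

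Gene counts are sums over transcripts, rounded to whole numbers. edgeR 4.0.16 (R 4.3.3) fitted strain with quasi-likelihood, TMM factors of 0.940 to 1.05, a filter at a minimum count of 10, and Benjamini-Hochberg adjustment over 12461 genes, and genes were called at an adjusted p under 0.05 and over 2-fold. On simulated counts for this comparison over 12461 genes, edgeR recovered 198 of 200 genes changed 4-fold with 0 false calls. Every simulated gene had the same dispersion (a biological coefficient of variation of 0.0665), and no other gene changed. The simulation therefore cannot tell how calls near 2-fold or at low counts fare. A single gene's exact permutation test cannot go below 0.1 with 3 against 3. Shared sequence was found as 31-base words of GENCODE transcripts, with at least 25% shared of either the member's words or those of a transcript of the other gene. Alternatives were DESeq2 1.42.0 with and without a length offset, other scalings and filters, limma 3.58.1 on log2 TPM with a pseudocount of 1 or of 0.1, libraries left out in turn, unmatched transcripts kept, and, chosen after the data were seen, reads summed over genes that share sequence.

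Every member that passed the filter is named, with all libraries for called members and the 8 with the highest mean CPM, and of each companion list the called genes and up to 3 more of the most abundant. Other genes named (cell type markers, Dkc1, Dicer1, Nono, Bcl2l11, Mir6516, Oip5os1 and overlapping genes) follow their position or were chosen after their values were seen. Not every overlapping gene is reported here. The members and lists were chosen with earlier results of these data known.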

Additional observations from a re-analysis of the deposited data

How the results depend on the processing

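With plain library size 8 members were higher and 3 lower at the adjusted p, and 1 companion gene was called. With at least 10 counts in every library, 613 genes were called higher and 404 lower, with 0 members lower by either rule, and Snhg10, H19, Snhg7 and Mir17hg were then not tested. With DESeq2, with or without a length offset, 0 members were lower by either rule. With limma on log2(TPM + 1), 434 and 365 genes, 1 and 0 members and 0 companion genes were called, and with limma on log2(TPM + 0.1) 3 members were called higher and 1 companion gene, and in both 7 members were higher and 9 lower at the adjusted p (Snhg1, Snhg3, Snhg5, Snhg7, Snhg10, Snhg12, Rmrp, Norad and Dleu2). The cause was not tested. TPM is not corrected for composition, and the median of all genes was then -0.15 and -0.18.

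Leaving out each library in turn gave 969 to 1078 genes higher and 655 to 714 lower, 6 to 7 members called higher and 1 lower, 11 to 15 and 1 to 2 at the adjusted p (2 without BALB/c replicate 1), and 2 companion genes called. Without BALB/c replicate 2 or C57BL/6 replicate 2, Rpph1 was at log2 0.97 and not called. All 7 called members were also called with DESeq2's size factors, without a filter, with unmatched transcripts kept and without BALB/c replicate 1 or 3 or C57BL/6 replicate 1 or 3.

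Over 444 values of members under alternatives, 410 kept direction and call. Reversed were members near 0: Snhg1 at -0.10 (plain library size), -0.14 and -0.14 (limma with 1 and with 0.1), Snhg16 at -0.11 and -0.12 and Dancr at -0.0096 and -0.0148 (limma). With libraries left out in turn, Dancr ranged from -0.0911 (without BALB/c replicate 1, also -0.04 without C57BL/6 replicate 3) to 0.5194, Mir17hg from -0.4342 to 0.0259 (0.0010 without BALB/c replicate 3 and 0.0259 without C57BL/6 replicate 1), Snhg20 from -0.2386 to 0.0488 (without BALB/c replicate 3) and Snhg4 from -0.129 to 0.0478 (without BALB/c replicate 3, and 0.00020 without C57BL/6 replicate 1). Summed with genes that share sequence, Mir22hg was at -0.64 and Rpph1 at -0.68, signs that the other gene of each sum sets, and Snhg14, with 1 read of its own, was called lower (log2 -2.60, edgeR adjusted p = 1.54e-06) through A930015D03Rik. No paired analysis was possible because the labels give the libraries no replicate numbers, only the names S9 to S14, and the numbers used here just name libraries within a strain. H19, Snhg10, Snhg7, Mir17hg and Dancr had at most 50 reads in a library, and their SE was 0.30 to 0.40.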
